A study of Homo sapiens with 3 samples.

Results

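The core hnRNP genes are the 10 genes HNRNPA0, HNRNPA1, HNRNPA2B1, HNRNPA3, HNRNPC, HNRNPD, HNRNPF, HNRNPH1, HNRNPK and HNRNPU, chosen by name from the 39320 gene rows that lie on assembled chromosomes. Each of them had 1 row in each of the 3 tables. RNA was sequenced from 3 libraries labelled HepG2, a standard cell line derived from a human liver tumour, with the genotype WT. The libraries are replicates 1, 2 and 3 of 1 condition with no treatment named, so no comparison between conditions exists. Nothing in the labels says that they came from separate cultures, and the spread between them may be technical.

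Heterogeneous nuclear ribonucleoproteins (hnRNPs) coat nascent transcripts in the nucleus and influence their splicing, export, stability and translation. Most of them bind RNA through RNA recognition motifs (RRMs) or KH domains, and the members differ in the sequences that they prefer. HNRNPA2B1 and HNRNPC are also known for binding RNA in a manner that depends on N6-methyladenosine (m6A), the modification that METTL3, the enzyme at the centre of the study, writes.

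The expected markers of the cell line were checked first. Each of 16 genes typical of hepatocytes stayed below 1 TPM (a transcript level scaled for gene length and for the library's total) in all 3 libraries. The tables list 11 of them at 0, among these SERPINA1, ALB, APOB and APOA1. Their summed level was 0.358 to 0.620 TPM. Of 5 listed mesenchymal genes, 3 reached 1 TPM in every library and SPARC was listed at 0. The summed level of these 5 was 695 to 785 TPM, nearly all of it from VIM. None of 3 blood genes reached 1 TPM, with PTPRC and LYZ listed at 0. The levels of the 16 hepatocyte genes thus go against the HepG2 label itself, so the values below are given only for libraries labelled HepG2. The part of cell identity in the hnRNP levels was not tested. In bulk RNA, fewer cells of a type and less RNA per cell cannot be told apart.

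HNRNPK carries a microRNA gene, MIR7-1, in intron 16, its last intron, on the same strand. The mature microRNAs are given from RefSeq (GRCh38.p14) with the seed, bases 2 to 8, in capitals. The first lies at chr9:83969811-83969834 and the other at chr9:83969771-83969792, both on the minus strand.
hsa-miR-7-5p: uGGAAGACuagugauuuuguuguu
hsa-miR-7-1-3p: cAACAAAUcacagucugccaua

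All 10 core hnRNP genes were abundant. Each had at least 100 TPM in every library, a level that 3.62% of all gene rows reached. Their mean levels spanned 7.99-fold, from 192 TPM for HNRNPA3 to 1534 TPM for HNRNPA1. HNRNPA1, HNRNPA2B1 and HNRNPK together held 60.9% of the summed TPM of the 10 genes. Of all TPM in a library, the 10 genes jointly held 0.547% to 0.563%. With mitochondrially encoded genes left out, the share of the 10 genes was 0.696 ± 0.0109% (SD, n = 3). By mean TPM they ranked between 68 and 722 among the 13753 genes whose mean was at least 1 TPM.

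**Figure D1:**
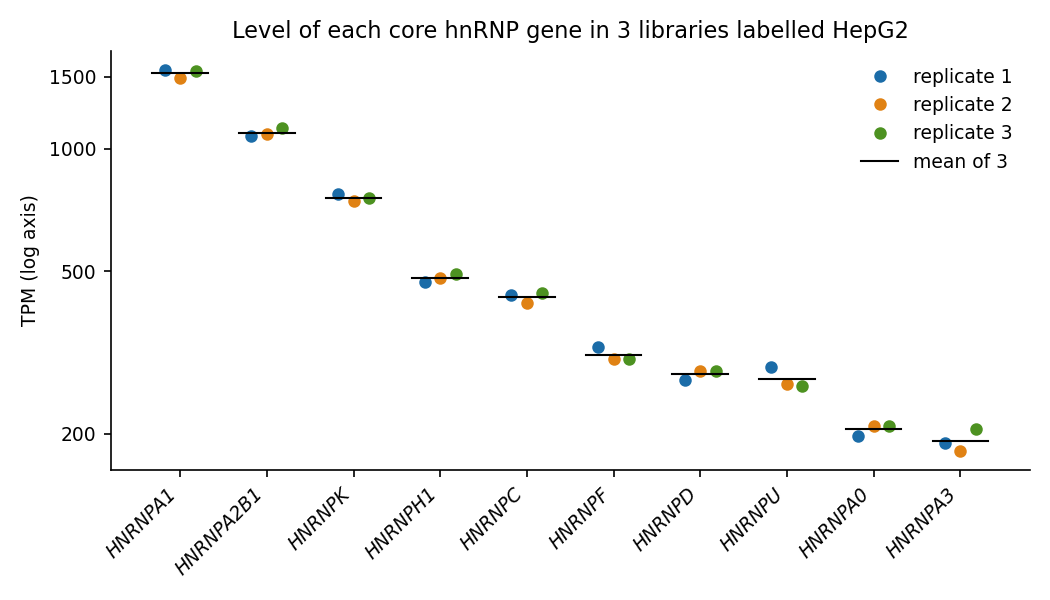
TPM of the 10 core hnRNP genes on a log axis, with 1 point per library labelled HepG2 and a line at the mean of the 3. HNRNPA1 stands highest at 1490.5 to 1562 TPM and HNRNPA3 lowest at 181 to 205 TPM, and the points of HNRNPD and HNRNPU overlap.

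The 10 genes lie on 9 chromosomes, 8 of them on the minus strand. In GRCh38, the rows of the A/B members span chr12:54280690-54287088 for HNRNPA1, chr7:26189920-26200793 for HNRNPA2B1, chr5:137751384-137754350 for HNRNPA0 and chr2:177212694-177223959 for HNRNPA3. HNRNPH1 shares chromosome 5 with HNRNPA0, at chr5:179614178-179634784, and its paralogue HNRNPF lies at chr10:43385617-43409248. HNRNPC spans chr14:21209136-21269479, HNRNPD chr4:82352498-82373996, HNRNPK chr9:83968083-83980782 and HNRNPU chr1:244850297-244864543. The HNRNPC row is the longest of them at 60344 bases, and the HNRNPA0 row the shortest at 2967 bases.

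The A/B proteins carry 2 adjacent RRMs and a glycine-rich tail, and HNRNPA1 is the classical splicing repressor among them. In replicates 1, 2 and 3, HNRNPA1 had 1562, 1490.5 and 1549 TPM, a mean of 1534 ± 38.0 TPM (SD, n = 3). HNRNPA2B1, which also sorts RNAs into transport granules and exosomes, had 1074, 1085 and 1123 TPM, a mean of 1094 ± 25.4 TPM (SD, n = 3). The ranges of these paralogues did not overlap, and HNRNPA1 was the higher in each library. HNRNPA0, an intronless member known for binding AU-rich elements, had 197, 209 and 209 TPM, a mean of 205 ± 6.46 TPM (SD, n = 3). HNRNPA3, a close relative of both with the same layout, had 189, 181 and 205 TPM, a mean of 192 ± 12.1 TPM (SD, n = 3). HNRNPA0 exceeded HNRNPA3 within each library, but their ranges overlapped, because HNRNPA3 was highest in replicate 3 and HNRNPA0 lowest in replicate 1.

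HNRNPC, which forms tetramers on uridine-rich RNA and helps to keep Alu elements out of mRNA, had 438, 418 and 443 TPM, a mean of 433 ± 13.0 TPM (SD, n = 3). Its row lies on chromosome 14, on the same strand as METTL3 and 228658 bases from it. HNRNPD, also called AUF1 and known for its part in the decay of AU-rich mRNAs, had 271, 285 and 285 TPM, a mean of 280.3 ± 7.86 TPM (SD, n = 3). HNRNPU, the scaffold attachment factor that binds RNA and chromatin, had 291, 265 and 263 TPM, a mean of 273 ± 15.9 TPM (SD, n = 3). HNRNPU was above HNRNPD in replicate 1 and below it in replicates 2 and 3, so these neighbours have no stable order.

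HNRNPK, which binds C-rich nucleic acids through KH domains, was the highest outside the A/B group, with 773, 745 and 758 TPM and a mean of 758 ± 13.9 TPM (SD, n = 3). HNRNPH1 and HNRNPF are paralogues that bind runs of G through quasi-RRMs. HNRNPH1 had 471, 483 and 494 TPM, a mean of 483 ± 11.1 TPM (SD, n = 3). HNRNPF had 327, 305 and 305 TPM, a mean of 312 ± 12.8 TPM (SD, n = 3). Every value of HNRNPH1 lay above every value of HNRNPF by TPM.

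Of the 9 pairs of neighbours in the order of mean TPM, 7 had ranges that did not overlap. The others were HNRNPD with HNRNPU, at a log2 ratio of 0.04 ± 0.12, and HNRNPA0 with HNRNPA3, at 0.10 ± 0.09 (SD, n = 3). The widest step was from HNRNPK to HNRNPH1, with a log2 ratio of 0.65 ± 0.05, and the narrowest of the 7 was from HNRNPF to HNRNPD, with 0.15 ± 0.10 (SD, n = 3). Among all 45 pairs of the 10 genes, 44 had the same order in all 3 libraries, and the remaining pair was HNRNPD with HNRNPU. A two-sided exact permutation test, which flips the signs of the log2 ratios over libraries, gave p = 0.25 for those 44 pairs, the smallest p that 3 libraries allow, and 0.256 after Benjamini-Hochberg adjustment over 45 pairs. For HNRNPD and HNRNPU the same exact permutation test gave p = 0.75. No pair could therefore reach significance, and the orders are given as counts of libraries.

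The ratios of paralogues were computed within each library on the log2(TPM + 1) scale. HNRNPA1 exceeded HNRNPA2B1 by a log2 ratio of 0.54, 0.46 and 0.46 in replicates 1, 2 and 3, a mean of 0.49 ± 0.05 (SD, n = 3). The mean log2 ratio of HNRNPA1 was 2.99 ± 0.07 to HNRNPA3 and 2.90 ± 0.07 to HNRNPA0 (SD, n = 3). HNRNPA2B1 stood above HNRNPA3 by 2.51 ± 0.06 (SD, n = 3). HNRNPH1 was above HNRNPF by 0.53, 0.66 and 0.69, a mean of 0.63 ± 0.09 (SD, n = 3). Each of these 5 ratios had 1 direction in 3 of 3 libraries, with p = 0.25 by the same exact permutation test and 0.25 after adjustment over the 5 pairs.

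The HNRNPH1 and HNRNPF pair turned around when the deposited coverage, a mean read depth, was used in place of TPM. The length over which coverage was averaged is not given in the sources used here. The coverage of HNRNPH1 was 1122, 1106 and 1004.5 in replicates 1, 2 and 3, and that of HNRNPF was 1616, 1474 and 1321. By coverage, HNRNPH1 was below HNRNPF in each library, with a log2 ratio of -0.53, -0.41 and -0.40 in replicates 1, 2 and 3, a mean of -0.45 ± 0.07 (SD, n = 3). The other 4 paralogue ratios kept their direction by coverage. In the order of the 10 genes, HNRNPH1 was 4th by TPM and 9th by coverage in every library. HNRNPU was 8th by mean TPM and 4th by mean coverage, with a coverage of 1808, 1611 and 1429. HNRNPC had 1599.7, 1482 and 1398, below HNRNPU in each library, although its TPM was the higher of both. HNRNPC and HNRNPF were the only pair whose order by coverage changed between libraries, with HNRNPF higher in replicate 1 alone. All 10 members had their lowest coverage in replicate 3. As this measure depends on how deeply a library was sequenced, its differences between libraries are not read as differences in level. Orders by mean coverage average over the 3 libraries. Of the 45 pairs, 8 had opposite directions by mean TPM and mean coverage, all of them with HNRNPH1 or HNRNPU, and 7 of the 8 were opposite in every library.

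The ratio of coverage to FPKM (fragments scaled for gene length and for the number mapped), divided by the highest such ratio of the library, shows for each gene how the deposited measures differ. TPM is proportional to FPKM within a library, so a low relative ratio marks a gene that stands higher by TPM than by coverage. HNRNPH1 had 0.379, 0.373 and 0.370 in replicates 1, 2 and 3, the lowest of the 10 genes. HNRNPC followed with 0.583, 0.577 and 0.575. The values of HNRNPA1 were 0.740, 0.744 and 0.744, and those of HNRNPU were 0.990 in each library. HNRNPA0, which has 1 exon and 1 annotated transcript, was at 1.00 in all 3. HNRNPH1 was the only member below 0.5 in every library, 1 of 10, beside 27.0% of the 8419 genes whose mean was at least 10 TPM. The share in the members is thus not above the background.

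The order of these ratios ran partly against the number of RefSeq transcripts. HNRNPH1 has 52 RefSeq transcripts and HNRNPC has 18, while HNRNPU has 2 and HNRNPA0 has 1. HNRNPA2B1 did not follow this order, with 32 transcripts and a mean relative ratio of 0.800, and neither did HNRNPA1, with 3 transcripts and 0.743. Across the 10 genes, Spearman's rho of the number of transcripts and the mean relative ratio was -0.64, a description over 10 genes measured in the same 3 libraries. The number of transcripts that the quantification used is not given in the sources used here, and its part in the ratios was not tested.

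**Figure D2:**
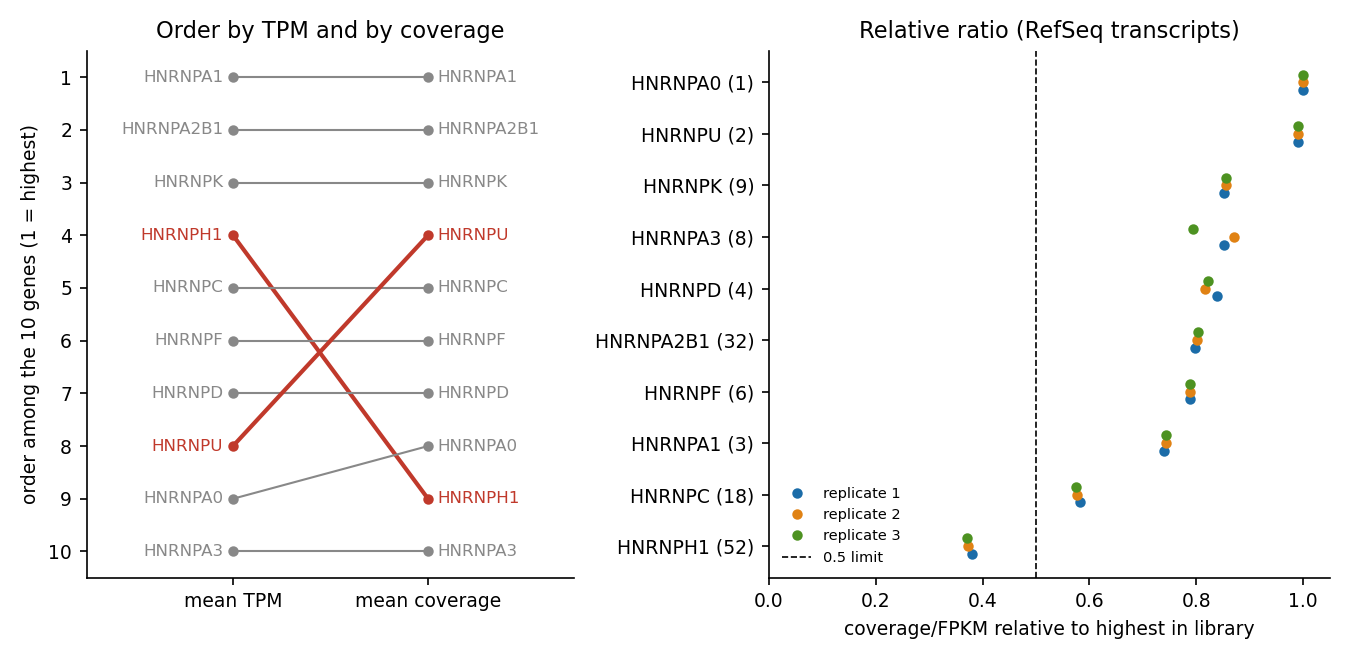
Left, the order of the 10 core hnRNP genes by mean TPM and by mean coverage over 3 libraries, with HNRNPH1 and HNRNPU in red. Right, the coverage to FPKM ratio of each gene relative to the highest in its library, 1 point per library, with the number of RefSeq transcripts in parentheses; HNRNPH1 lies at 0.370 to 0.379, left of the dashed 0.5 limit, and HNRNPA0 at 1.00.

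Replicates differed little. The coefficient of variation (CV, the SD as a percentage of the mean) of TPM ran from 1.83% for HNRNPK to 6.29% for HNRNPA3, with a median of 2.91% over the 10 genes. The median was 4.88% over the genes whose mean was at least 10 TPM and 3.51% over the 1491 genes whose mean was at least 100 TPM. HNRNPA3 and HNRNPU, at 5.83%, were above the former median and the other 8 members were below it. The latter median is the closer match in level, and HNRNPF, at 4.09%, was above that one as well. The largest range of log2(TPM + 1) between libraries was 0.18, in HNRNPA3. No member had a range above 1, a limit that 0.273% of the genes whose mean was at least 10 TPM passed, so that 0 of 10 is near the background. Replicate 3 gave the highest TPM of 5 members, replicate 1 that of 4 and replicate 2 that of 1. No such count was made over all genes, and whether the members moved together was not tested.

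**Figure D3:**
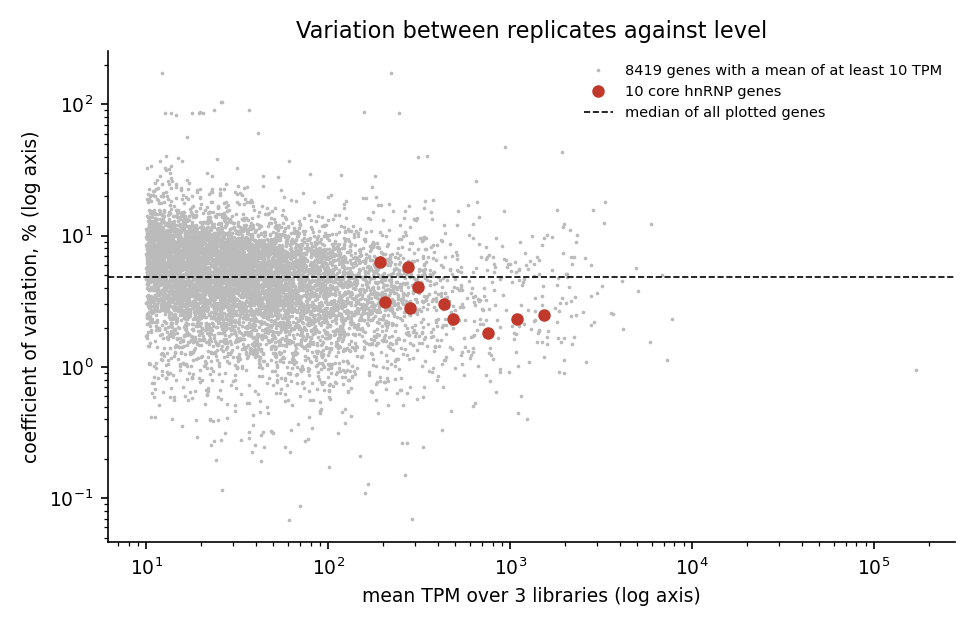
CV of TPM over 3 libraries against mean TPM, both on log axes, for the 8419 genes whose mean was at least 10 TPM (grey) and the 10 core hnRNP genes (red). The dashed line is the median of all plotted genes, 4.88%, and 8 of the 10 red points lie below it.

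Processed pseudogenes, which are copies of a spliced RNA inserted elsewhere in the genome, bear on the precision of some members, because reads from a near-identical copy cannot be placed with certainty. GENCODE v44 names 111 pseudogene loci after the 10 genes, and 74 of them after HNRNPA1. The deposited tables hold 4 rows named this way. To measure the overlap, every window of 150 bases, the read length, of the MANE Select transcript (the reference transcript chosen jointly by RefSeq and Ensembl) was searched for unaltered in the pseudogene loci named after its gene. In HNRNPA1, 15.2% of the windows were found in at least 1 locus, and 20.2% of the windows of 75 bases were. In HNRNPA3, which has 16 named loci, the shares were 7.55% and 13.9%. In HNRNPC, which has 9, they were 0.763% and 9.58%. Windows of 150 bases were shared in no other member, and windows of 75 bases in HNRNPK and HNRNPU only, at 2.88% and 0.221%. HNRNPA0 and HNRNPA2B1 have no locus named after them. Copies with other names and paralogues were not searched, and the pairing of reads was not taken into account.

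**Figure D4:**
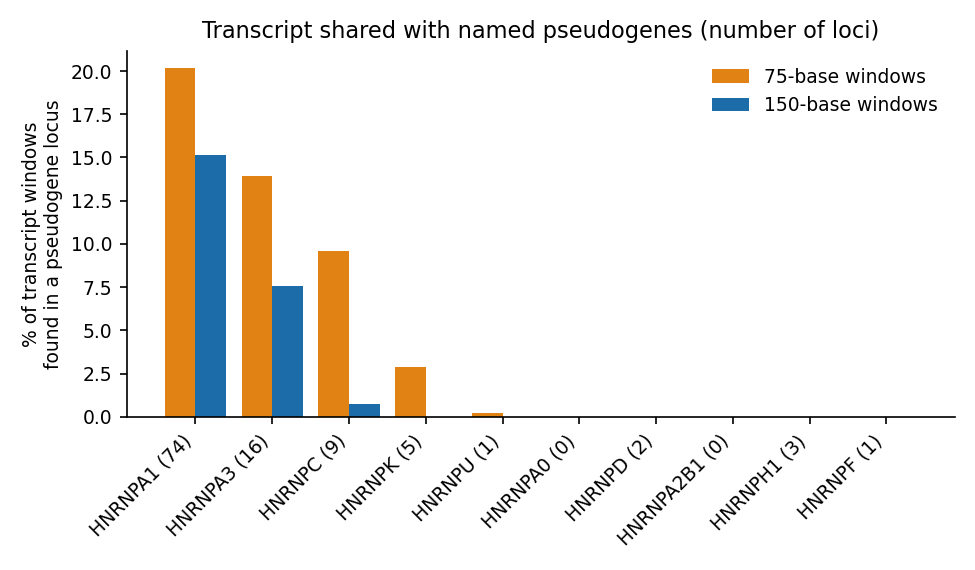
Percentage of the windows of 75 bases (orange) and 150 bases (blue) of each member's reference transcript that are found unaltered in a pseudogene locus named after it, with the number of loci in parentheses. HNRNPA1, with 74 loci, has the highest bars at 20.2% and 15.2%, and 5 members have none.

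The levels of HNRNPA1, HNRNPA3 and HNRNPC are therefore uncertain to the extent that reads were split with such copies, which was not tested. HNRNPA1P33 had 29.5, 28.7 and 29.4 TPM in replicates 1, 2 and 3, a mean of 29.2 ± 0.440 TPM (SD, n = 3), or 1.91% of the level of HNRNPA1. Its row of 542 bases was 96.7% identical to the HNRNPA1 transcript over the bases paired in the alignment. Of its 393 windows of 150 bases, 0 occur in that transcript, and of its 468 windows of 75 bases, 22 do. The alignment had 701 columns and 541 of them paired bases, so part of the transcript had no counterpart in the row. HNRNPA1P10 was closer to its parent at 99.3% and had 5.10 ± 0.306 TPM (SD, n = 3). Of its 1205 windows of 150 bases, 325 occur in the HNRNPA1 transcript, and its alignment had 1513 columns with 1354 paired. Windows that cross such a gap cannot match, and the effect on the counts of windows was not tested. HNRNPA3P1 was below 1 TPM in all 3 libraries and HNRNPKP3 was listed at 0. Adding these rows to their members left each mean within 1 SD. Only HNRNPA1 had such rows above 1 TPM, and its mean rose from 1534 to 1568 TPM. The sum cannot show reads at named loci without a row or reads that were not placed.

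Rows that overlap a member were few. MIR7-1 in HNRNPK had 10.6, 12.9 and 10.7 TPM, or 1.503% of the level of HNRNPK. Its row spans 110 bases and lies wholly within the host row on the same strand, so reads of the microRNA precursor and of the intron cannot be told apart. RMI1, a gene for a DNA repair protein on the opposite strand, had 17.6 ± 1.58 TPM (SD, n = 3) and shares 424 bases with the 5′ end of HNRNPK. The strand setting of the quantification is not given in the sources used here, so reads of this stretch could have been counted for either gene. MIR4444-1 in HNRNPA3 and SNORA100 in HNRNPU were below 1 TPM.

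The RMI1 row begins at 83980359, between the 2 start sites that RefSeq gives for HNRNPK. The 100 bases before each start are shown for this reason (RefSeq, GRCh38.p14, minus strand), with CCAAT and GGGCGG and their reverse complements in capitals. The outer start follows chr9:83980616-83980715 and the inner start follows chr9:83980216-83980315. Both stretches lie within the deposited HNRNPK row, which reaches 83980782, beyond the outer RefSeq start.
HNRNPK outer start: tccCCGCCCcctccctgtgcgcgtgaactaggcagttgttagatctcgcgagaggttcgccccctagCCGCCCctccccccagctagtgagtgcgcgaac
HNRNPK inner start: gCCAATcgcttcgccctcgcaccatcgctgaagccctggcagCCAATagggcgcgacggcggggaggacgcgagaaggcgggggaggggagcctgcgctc

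The stretch before the inner start holds CCAAT at 2 places and that before the outer start holds GGGCGG, on the other strand, at 2 places. Promoter windows of 300 bases were given for 9 of the 10 members, 14 windows in all, because HNRNPH1 has 4 starts and HNRNPF and HNRNPK have 2 each. On either strand, CCAAT was found in 9 of these 14 windows, GGGCGG in 9 and TATAAA in 2. Over all 35116 windows the shares were 34.6%, 44.95% and 11.5%. These are matches of letters and no binding was measured.

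HNRNPA0 needs a further limit. The deposited row spans 2967 bases, while the single exon of the RefSeq gene in GRCh38.p14 spans 8713 bases, of which 5733 at the 3′ end lie outside the row. Of the 10 members, 2 rows, HNRNPH1 and HNRNPU, had the same start and end as the RefSeq gene. The effect of the shorter row on the TPM of HNRNPA0 was not tested.

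The other hnRNP genes were taken from a list of 16. All 16 had at least 10 TPM in every library, as did 20.7% of all gene rows, and 12 had at least 100 TPM. HNRNPAB, HNRNPL, HNRNPM, PCBP1, PTBP1, RBMX, PCBP2 and HNRNPR had means between 303 and 436 TPM, with HNRNPAB the highest. HNRNPUL1 had 265 TPM, RALY, a close relative of HNRNPC, 226 TPM, and HNRNPH3 209.9 TPM. The lowest were HNRNPDL at 118 TPM, SYNCRIP at 93.1 TPM, HNRNPH2 at 85.4 TPM, HNRNPUL2 at 39.7 TPM and HNRNPLL at 26.4 TPM. The median of the list was 284 TPM, against 373 TPM for the 10 core genes, and by TPM the range of HNRNPAB overlapped that of HNRNPC and lay above those of the 5 core genes below HNRNPC. RBMX, which is also known for m6A-dependent binding, had 340, 321 and 331 TPM, below HNRNPC and HNRNPA2B1 in each library. The order differed by coverage, where HNRNPAB had 2638, 2629 and 2304 in replicates 1, 2 and 3 and exceeded HNRNPC and HNRNPH1 in each library. PCBP1, PCBP2, HNRNPL and HNRNPM also exceeded HNRNPC by coverage in each library, although they were below it by TPM. RALY had a mean coverage of 130.2, above that of HNRNPLL alone among the 16, with a mean relative ratio of 0.0963. The relative ratio was below 0.5 in every library for 5 of the 16, RBMX, HNRNPR, HNRNPUL1, RALY and HNRNPH3, near the 27.0% background. RBMX lay just under the limit, at 0.499 in each library.

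**Figure D5:**
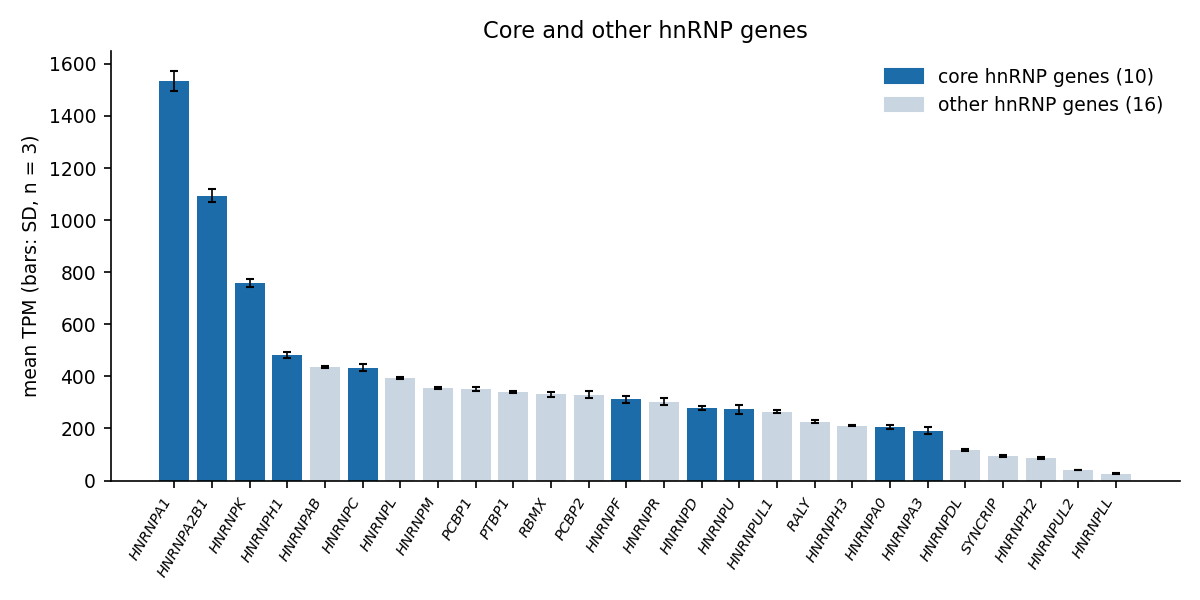
Mean TPM of the 10 core hnRNP genes (dark bars) and the 16 other hnRNP genes (light bars), with error bars for the SD over 3 libraries. The highest 4 bars are core genes, HNRNPAB follows at 436 TPM, and HNRNPLL is the lowest at 26.4 TPM.

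The 10 core hnRNP genes were compared with the SR proteins, the serine and arginine rich factors that often act against hnRNPs in the choice of exons. The 10 genes summed to 5594, 5466 and 5632 TPM in replicates 1, 2 and 3, and SRSF1 to SRSF12 summed to 1750.5, 1717 and 1729 TPM. The log2 ratio of the sums was 1.68 ± 0.02 (SD, n = 3), a 3.21-fold difference in the same direction in 3 of 3 libraries, with p = 0.25 by the same exact permutation test. Among the SR genes SRSF2 was the highest with 335 ± 17.7 TPM (SD, n = 3), and SRSF12 was listed at 0 in all 3. By TPM, SRSF2 was below the 5 highest core hnRNP genes in each library. By coverage SRSF9 was the highest SR gene, with 1881, 1897 and 1738 in replicates 1, 2 and 3, and of the core genes only HNRNPA1, HNRNPA2B1 and HNRNPK exceeded it in each library.

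METTL3 had 31.1, 33.6 and 31.5 TPM in replicates 1, 2 and 3, below every core hnRNP gene. HNRNPC exceeded METTL3 by a log2 ratio of 3.77, 3.60 and 3.77, a mean of 3.72 ± 0.10 (SD, n = 3). HNRNPA2B1 exceeded it by 5.07, 4.97 and 5.11, a mean of 5.05 ± 0.07 (SD, n = 3). Both directions held in 3 of 3 libraries and by coverage, with p = 0.25 by the same exact permutation test and 0.25 after adjustment over 2 pairs. The RNA of both m6A-linked hnRNPs was thus more abundant than that of the methyltransferase, and protein levels were not measured.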

How the data were processed

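RNA-seq was analysed in 3 libraries labelled HepG2. Read pairs of 150 bp passed through FastQC 0.11.8 and Trim Galore 0.6.2, and the authors aligned them to GRCh38 with STAR 2.6.1a. The submitters' processing notes also name StringTie, and its version, annotation and strand setting are not given in the sources used here. The coverage, FPKM and TPM values were deposited by the authors, 1 table per library. Coverage is a mean depth that is not scaled for library size. Depth in reads is unknown, so no counting interval is given, and precision is the SD over 3 libraries. The highest ratio of coverage to FPKM among genes above 1 FPKM was 13.3, 12.8 and 11.5 in replicates 1, 2 and 3.

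Gene rows were joined by name and coordinates (43389 rows), and 39320 of them lay on assembled chromosomes, the others on unplaced or alternate references. No core hnRNP gene had a row elsewhere. Log2 ratios used a pseudocount of 1 and were tested by exact permutation, two-sided, flipping their signs over the libraries. Genes named were the 10 members, 16 other hnRNP genes, METTL3, the SR genes by their sum and extremes, the highest pseudogene row and overlapping rows of at least 10 TPM. The lower pseudogene and overlapping rows were named after their values were seen. One further listed gene and some sequences are not reported here. The members and lists were chosen with earlier results of these data known. Transcripts and loci came from GENCODE v44 and hg38, and alignments were local, with Biopython 1.88. The calculations were tested on simulated data and used Python 3.11.15, numpy 2.4.6, pandas 2.3.3, scipy 1.17.1, statsmodels 0.14.6 and matplotlib 3.10.9. Alternatives were each replicate left out, other pseudocounts, limits and scalings, and coverage or FPKM in place of TPM.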

Additional observations from a re-analysis of the deposited data

How the results depend on the processing

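The log2 ratio of HNRNPH1 to HNRNPF fell from 0.63 to the opposite direction, -0.45, with coverage in place of TPM. The other 4 paralogue ratios, both ratios to METTL3 and the ratio to the SR sum kept their direction by coverage. They also kept it under a pseudocount of 0.1 and, where run, by FPKM. Neither of these settings could have turned them, because the levels are far above the pseudocount and TPM is proportional to FPKM within a library. The share of the 10 members was 0.556% of TPM, 0.696% without mitochondrially encoded genes and 0.674% by coverage. Removing mitochondrially encoded genes raised each member's mean by a factor of 1.25. The median percentile of the members was 97.6, against 99.2 with no filter, 96.1 among genes whose mean was at least 10 TPM and 97.2 by coverage. With the limit on the relative ratio at 0.25, 0 members lay below it, against 1 at 0.5.

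With each replicate left out, the share ranged from 0.553% to 0.561%, the pairs with a stable order from 44 to 45, and the log2 ratio of HNRNPH1 to HNRNPF from 0.60 to 0.68. Fewer libraries can only raise the number of stable pairs. No paired analysis was possible because 1 condition was sampled, so that replicate numbers pair no samples across conditions. Gene ratios were taken within each library. Depth in reads is unknown, which limits every row listed at 0.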
